A study of Mus musculus with 3 samples.

Results

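The 9 Nkx homeobox genes Nkx2-1, Nkx2-2, Nkx2-3, Nkx2-4, Nkx2-5, Nkx2-6, Nkx2-9, Nkx3-2 and Nkx6-1 were looked up in 1 list of Isl1 binding sites. A peak, meaning a stretch of the genome enriched in the pulldown, belonged to a gene when the deposited gene symbol matched. By this rule 9 of 14082 distinct peaks lay at 6 of the 9 genes. The list came from chromatin immunoprecipitation followed by sequencing (ChIP-Seq) of Isl1, a LIM-homeodomain factor of heart progenitors, in cardiac progenitor cells (CPCs) at day 5. The CPCs were differentiated from the mouse embryonic stem cell line E14 Tg(Nkx2-5-EmGFP). In the paper's directed protocol the stem cells were first grown with LIF and BMP4 and then aggregated. They were next re-aggregated with Activin A, VEGF and BMP4, and plated as a monolayer with VEGF, bFGF and FGF10. The paper also describes a hanging drop method and does not state which of these gave the ChIP-Seq cells. All 3 samples came from this stem cell line, 2 of them Isl1 ChIP replicates and 1 an input of chromatin that was not pulled down. The 2 replicates were combined into the 1 list before deposit, which holds positions without read numbers or scores, so depth is unknown, no replicate error can be given and no test between genes was possible. The line carries a fluorescent transgene named for Nkx2-5. How much Nkx2-5 sequence the transgene holds is not given in the sources used here, so reads from it cannot be told apart from reads of the native gene. Expression was not measured in these samples, so the progenitor identity of the cells was not checked against markers.

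Nkx proteins are homeodomain transcription factors of the NK class, related to Drosophila tinman and bagpipe, and each marks particular organs. Nkx2-5 is a core regulator of the early heart and Nkx2-6 acts in the pharynx and outflow tract. Nkx2-1 is needed for thyroid, lung and ventral forebrain, Nkx2-4 is active in the hypothalamus and thyroid, Nkx2-2, Nkx2-9 and Nkx6-1 pattern the ventral neural tube, with Nkx2-2 and Nkx6-1 also acting in pancreatic islets, Nkx3-2 acts in the axial skeleton and spleen, and Nkx2-3 in spleen and gut.

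Assigned Isl1 peaks lay over the gene bodies of 5 members from cardiac, thyroid and forebrain, neural and skeletal lineages alike. These were Nkx2-5, Nkx2-1, Nkx2-4, Nkx6-1 and Nkx3-2. At the same 5 members (55.6%) coding bases lay under a peak, against 19.5% of annotated coding genes. The other cardiac member, Nkx2-6, had a single peak far upstream at repeated sequence, and Nkx2-2, Nkx2-3 and Nkx2-9 had no assigned peak. The 6 of 9 members with a peak (66.7%) compare with 39.1% of protein-coding genes. A peak within 1 kb of the transcription start site (TSS) was assigned to 4 members, or 44.4%, against 24.2% of protein-coding genes. Only Nkx2-5 and Nkx6-1 had 2 or more peaks (22.2% of members, against 11.1% of protein-coding genes). With 9 members these shares are a description.

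Centres of 3 of the gene-body peaks are shown because they carry the sequence that these peaks share, a high density of CG dinucleotides, which stand in capitals. A further sequence, from the peak at the 5′ end of Nkx2-2 that the list assigned to a noncoding gene, is shown for contrast. Each is the central 200 bp of its peak in mm9, read from 5′ to 3′ on the minus strand, which is the coding strand of all 3 genes. The first is from chr17:26978065-26978264, within exon 1 of Nkx2-5, and the second from chr17:26976155-26976354, within exon 2. The third is from chr2:146910398-146910597, in the intron of Nkx2-4, and the last from chr2:147020229-147020428, beside Nkx2-2.
Nkx2-5 exon 1: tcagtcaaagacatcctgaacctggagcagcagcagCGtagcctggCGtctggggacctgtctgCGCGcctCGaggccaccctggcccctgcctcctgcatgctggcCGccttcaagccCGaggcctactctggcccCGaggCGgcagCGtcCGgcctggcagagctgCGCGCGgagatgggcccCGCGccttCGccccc
Nkx2-5 exon 2: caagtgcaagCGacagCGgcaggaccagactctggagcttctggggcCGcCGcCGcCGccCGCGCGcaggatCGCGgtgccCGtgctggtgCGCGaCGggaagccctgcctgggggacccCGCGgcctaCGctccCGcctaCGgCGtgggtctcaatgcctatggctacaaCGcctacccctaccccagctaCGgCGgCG
Nkx2-4 intron: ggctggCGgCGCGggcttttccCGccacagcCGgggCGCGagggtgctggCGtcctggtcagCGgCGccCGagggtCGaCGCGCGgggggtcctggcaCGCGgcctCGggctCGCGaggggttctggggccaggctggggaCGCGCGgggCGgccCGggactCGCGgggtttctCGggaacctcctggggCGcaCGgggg
Nkx2-2 5′ end: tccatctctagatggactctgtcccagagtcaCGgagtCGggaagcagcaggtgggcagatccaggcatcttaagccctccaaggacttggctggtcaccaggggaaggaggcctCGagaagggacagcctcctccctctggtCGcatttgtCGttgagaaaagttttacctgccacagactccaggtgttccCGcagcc
The 3 gene-body centres held 17, 25 and 30 CG dinucleotides in that order, and the centre beside Nkx2-2 held 6. This contrast concerns the centres. Over the whole peak, GC content was 66.6% beside Nkx2-2, 62.3% and 65.7% at Nkx2-5 and 71.4% at Nkx2-4. The median was 21 over the Nkx peaks within 5 kb of a TSS and 24 over all peaks within 5 kb. A high density is therefore not particular to the Nkx genes. Centres of peaks at repeated sequence are not shown, since their sequence is not particular to these genes.

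A pair of peaks lay over Nkx2-5, 1 on each of its coding exons. The first (chr17:26977709-26978620, 911 bp wide) lay 346 bp downstream of the TSS by the deposited distance, which runs from the peak to the closest RefSeq TSS and is positive downstream. It spanned the TSS, reaching 110 bp upstream of it, and held all 331 coding bases of exon 1. The second (chr17:26975662-26976846, 1184 bp wide) lay 2256 bp downstream and held all 623 coding bases of exon 2. Between them, 863 bp of intron carried no peak. Together they contained 954 of 954 coding bases (100%) of the gene. Both were at single-copy sequence, defined as a median of fewer than 2 genomic occurrences of the 31-base words in the central 200 bp.

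**Figure D1:**
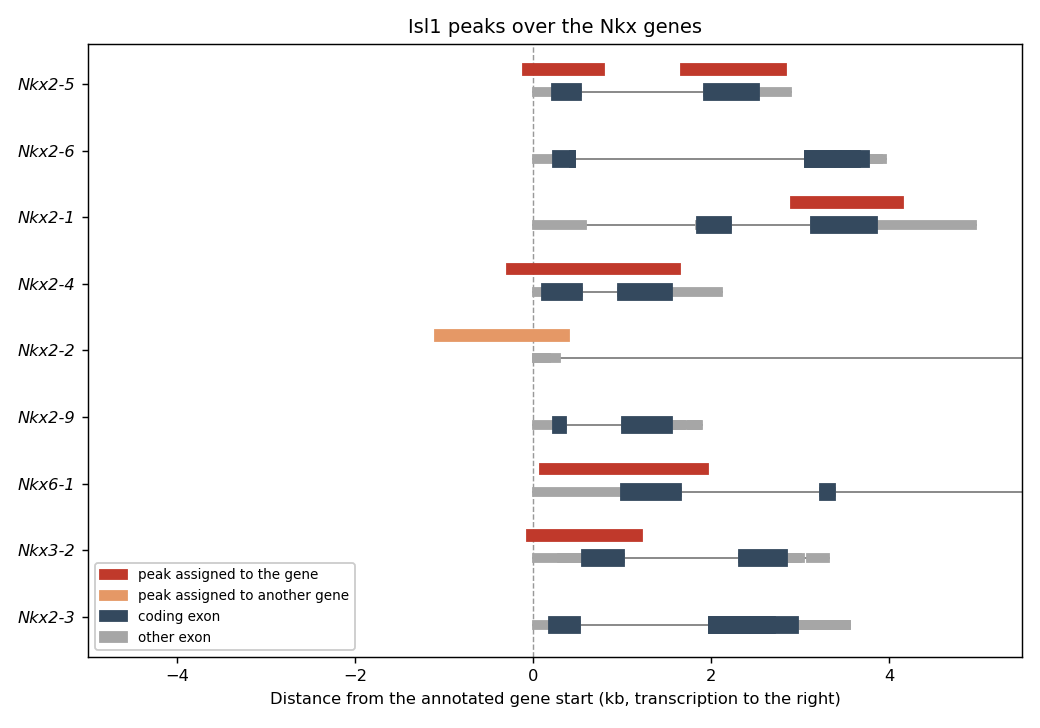
Isl1 peaks (red, or orange when assigned to another gene) above the exons of the 9 Nkx genes, by distance in kb from the annotated gene start, with transcription to the right, coding exons in dark blue and other exons in grey. The 2 peaks of Nkx2-5 and the peak of Nkx2-4 contain every coding base, while Nkx2-6, Nkx2-9 and Nkx2-3 show no peak within the window.

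The peak of Nkx2-6 was of a different kind. It lay at chr14:69727318-69729063, 1745 bp wide, in intergenic sequence at a deposited distance of -61669 bp, that is upstream of the gene. Its central 31-base words occurred a median of 2211.5 times in the genome, and the part of other copies in its reads was not tested. The closest protein-coding TSS in the GENCODE annotation was that of Rps2-ps5, 48721 bp away. No other peak lay within 100 kb of the Nkx2-6 start. Nkx2-6 therefore kept no peak when multi-copy peaks were set aside, and Nkx2-5 kept both.

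Among the thyroid, lung and forebrain genes, Nkx2-1 had 1 peak at chr12:57633732-57634995, 1263 bp wide and 3532 bp downstream of the TSS. It lay over the last exon and held 743 coding bases, or 66.6% of the 1116 in the gene, leaving the start without a peak. Nkx2-4, the closest relative of Nkx2-1, had 1 peak at chr2:146909526-146911468. This peak was 1942 bp wide, lay 584 bp downstream, covered the TSS and contained all 1062 coding bases (100%). Both peaks were single-copy.

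Each of these genes has an NK neighbour with no assigned peak. Nkx2-9 starts 76.4 kb from Nkx2-1, between it and Pax9, a regulator of the vertebral column and pharyngeal pouches. Its closest peak midpoint, 79908 bp away, was that of Nkx2-1, and the only other peak within 100 kb belonged to Pax9. Nkx2-2 starts 108.8 kb from Nkx2-4. Here the list held 2 peaks that were assigned to noncoding transcripts. The first, at chr2:147019574-147021082 (1508 bp wide, single-copy), was assigned to 6430503K07Rik and spanned the most upstream annotated start of Nkx2-2, which belongs to a noncoding transcript, with its midpoint 349 bp from it. From the most upstream start of the coding transcripts that midpoint was 8190 bp away. The second, at chr2:147001766-147002422 (656 bp wide, a median of 177 copies), was assigned to Nkx2-2os and lay beyond the 3′ end. Neither touched coding sequence. Whether Nkx2-2 counts as a gene with a peak thus turns on whether noncoding transcripts may claim a peak and on which start is used.

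Nkx6-1 had the most peaks of the members. Its gene-body peak, at chr5:102092276-102094162 (1886 bp wide), lay 511 bp downstream and held 673 of 1095 coding bases (61.5%), all in the first exon, at single-copy sequence. The other 2 were intergenic and multi-copy. One was at chr5:102063150-102065587, 29362 bp downstream and 2437 bp wide, with a median of 9 copies, and is the widest peak of the family. The other was at chr5:101975116-101975978, 118183 bp downstream and 862 bp wide, with a median of 18598 copies. The nearest protein-coding start on that side in GENCODE, that of Agpat9, is 819.5 kb from Nkx6-1.

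Nkx3-2, a repressor that promotes cartilage formation, had 1 single-copy peak at chr5:42154510-42155807. It was 1297 bp wide, lay 301 bp downstream, spanned the TSS and held 466 of 999 coding bases (46.6%). Nkx2-3 stood apart from the rest, since its closest peak midpoint was 171388 bp from the start and no peak of any gene lay within 100 kb. Peaks within 100 kb of a start numbered 0 to 3 over the members, with a median of 2, against a median of 1 over all annotated coding genes. The upper quartile went the other way, at 2 over the members and 3 over all annotated coding genes.

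**Figure D2:**
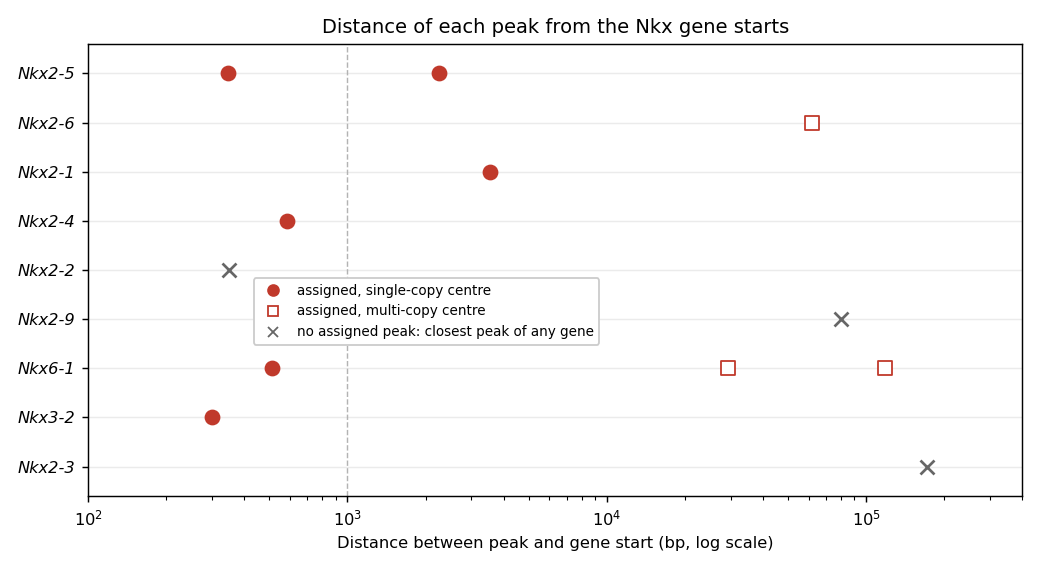
Distance in bp (log scale) between each assigned peak and the TSS of its Nkx gene as deposited, with filled circles for single-copy and open squares for multi-copy peak centres, and crosses for the closest peak of any gene, measured to the annotated gene start, where none was assigned. The 6 single-copy peaks lie between 301 and 3532 bp and the 3 multi-copy peaks between 29362 and 118183 bp.

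The cardiac members had 3 peaks over 2 genes, or 1.5 per gene, and the members of other lineages had 6 over 7 genes, or 0.857 per gene. This difference of 0.643 peaks per gene has no error attached and rested on Nkx2-5 and on the far peak of Nkx2-6. It was 0.143 when peaks less than 1000 bp apart were joined, because the pair at Nkx2-5 then counted once. It was -0.143 when peaks went to the closest protein-coding start of the GENCODE annotation, which also left out noncoding genes. Nkx2-2 then gained 2 peaks, and Nkx2-6 lost its peak to Rps2-ps5, a locus named as a pseudogene but listed there as protein-coding. With single-copy peaks alone it was 0.429. Within the family, an assigned gene-body peak was thus found at 1 of 2 cardiac members and 4 of 7 others. The peak spanning the noncoding start of Nkx2-2 was not among these, as it was assigned to a noncoding gene. By width the Nkx2-5 peaks, at 911 and 1184 bp, lay below the gene-body peaks of the other lineages, at 1263, 1297, 1886 and 1942 bp. The 9 peaks had a median width of 1297 bp, and 7 of them exceeded the median of 947 bp over all peaks.

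Position inside the gene was shared by the near peaks. All 6 peaks within 5 kb of a TSS lay downstream of it, as did 78.3% of all peaks within 5 kb. Their midpoints fell in a coding exon in 5 of 6 cases (83.3%), the exception being the intron of Nkx2-4, compared with 24.9% of all peaks within 5 kb. Each of the 6 touched coding sequence, which 63.5% of all such peaks did. None of the 6 was multi-copy, against 6.29% of all peaks within 5 kb, whereas each of the 3 beyond 10 kb was, against 81.2% of all peaks beyond 10 kb. A single-copy peak was assigned to 5 of 9 members (55.6%) and to 28.7% of protein-coding genes.

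The share of the coding sequence under peaks was therefore computed for each gene, over the coding bases of all its annotated transcripts. It was 100% for Nkx2-5 and Nkx2-4, 66.6% for Nkx2-1, 61.5% for Nkx6-1 and 46.6% for Nkx3-2, and 0 for Nkx2-6, Nkx2-2, Nkx2-9 and Nkx2-3. Over 40% was thus reached by 5 of 9 members, against 3.96% of annotated coding genes. Short coding sequences are covered more easily, and those of the members ran from 705 to 1349 bases. Among annotated genes with 500 to 1500 coding bases, 4.86% exceeded 40%. Of those in this range with any coding base under a peak, 30.1% did, with a median coverage of 21.6%. The 5 members with any coding base under a peak all did, with a median of 66.6%. The limit of 40% was set after the members' values had been seen.

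**Figure D3:**
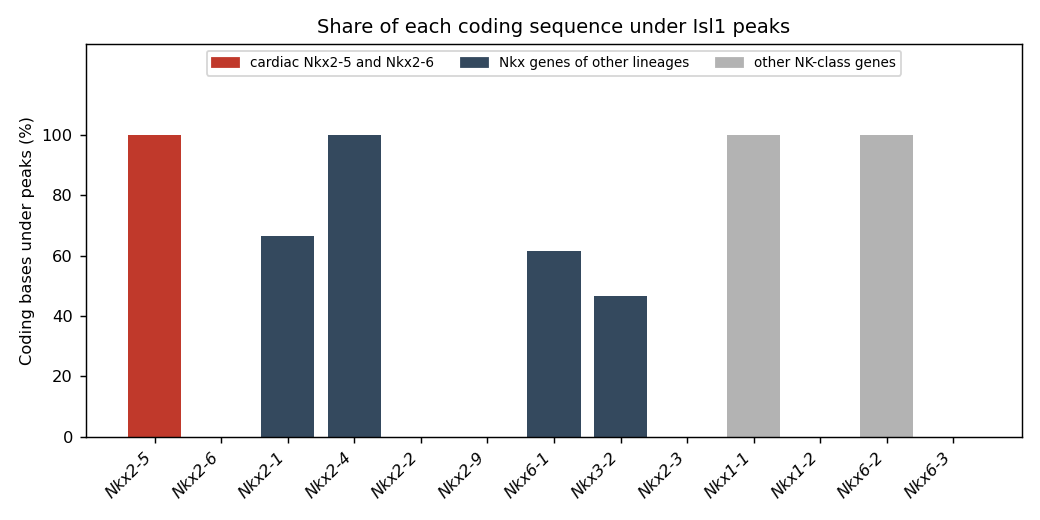
Percent of annotated coding bases lying under Isl1 peaks for the 9 Nkx genes (red for cardiac, dark blue for other lineages) and 4 further NK-class genes (grey), with bars starting at 0. Covered genes range from 46.6% for Nkx3-2 to 100% for Nkx2-5, Nkx2-4, Nkx1-1 and Nkx6-2, and the remaining 6 genes are at 0.

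In base composition the gene-body peaks resembled other peaks near genes. The GC content of their central 200 bp was 71.5% and 72.5% at Nkx2-5, 72.5% at Nkx2-1, 80% at Nkx2-4, 72.0% at Nkx6-1 and 70.5% at Nkx3-2. Their median of 72.3% was within 2 percentage points of the 73.5% over all peaks within 5 kb. The ratio of observed to expected CG dinucleotides, in which values near 1 mean that CG is not depleted as it is in most mouse DNA, ran from 0.672 to 0.982 with a median of 0.821, against 0.913. The distant peaks held fewer CG dinucleotides. Nkx2-6 had 12 with a GC content of 63.5%, and the peaks of Nkx6-1 had 5 and 0 with 68.5% and 51.0%. Over all peaks beyond 10 kb the medians were 11 and 63.5%, so a lower count is not particular to the distant Nkx peaks. Flanks of 200 bp placed 2 kb to either side of the 9 centres had a median GC content of 43.75%. The centre exceeded both flanks at 8 of 9 peaks, and at 94.0% of all peaks. The exception was the exon 1 peak of Nkx2-5, for which the flank on the side of exon 2 had 75%. That flank lay inside the exon 2 peak, and the facing flank of the exon 2 peak lay inside the exon 1 peak.

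**Figure D4:**
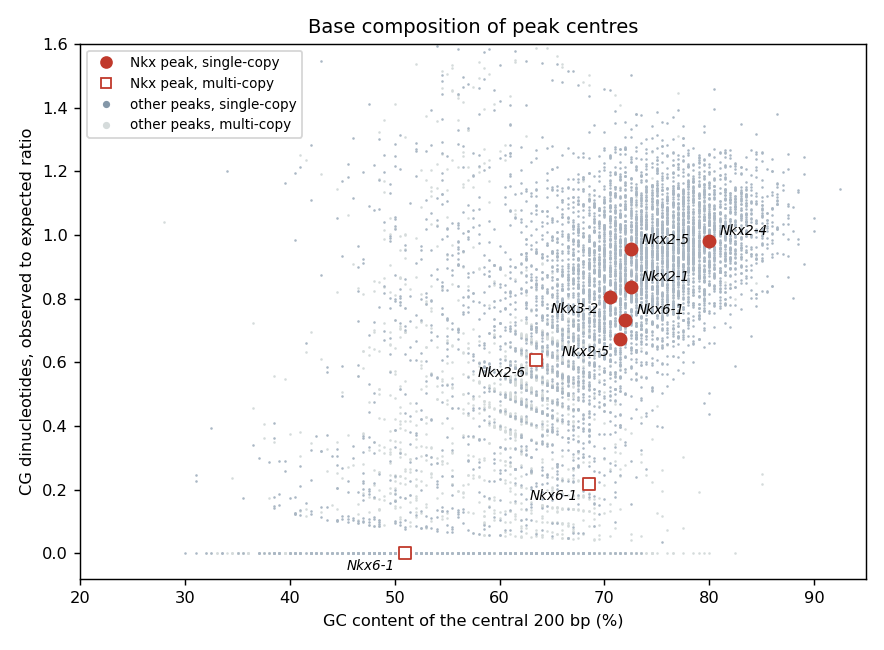
GC content in percent of the central 200 bp of each peak against its ratio of observed to expected CG dinucleotides, for the 9 Nkx peaks (red, filled if single-copy and open if multi-copy) and all other peaks (blue-grey if single-copy, light grey if multi-copy). The 6 gene-body peaks lie between 70.5% and 80% GC and the 3 distant peaks between 51.0% and 68.5%.

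Letters that homeodomains and their cardiac partners are known to prefer were counted in the peak centres, where most of them are rare over all peaks too. TAAT, the core read by most homeodomains, was sought on both strands and was found in 0 of 9 centres, against 19.4% of all centres and 6.98% of those within 5 kb of a TSS. In flanks it was found in 11 of 18 for the Nkx peaks and in 72.2% over all peaks. Over the whole width of the peaks 6 of 9 held it, against 74.0% of all peaks. TAAT reads the same when reversed, so it has no reversed control. The longer LIM-homeodomain type strings CTAATGG or CTAATTG, each of which contains TAAT, were in 0 of 9 centres and in 0.412% of all centres, against 0.256% for the same strings reversed without complementing, which served as controls.

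Of the letters typical of NK2 factors, TTAAGTG or TCAAGTG were in 0 of 9 centres (0.589% of all, reversed control 0.632%). CACTT, the core of the preceding strings on the other strand, was in 1 of 9. This was the exon 2 peak of Nkx2-5 shown above, where it reads aagtg near the 5′ end. Its share over all centres was 9.97%, with 7.75% for its reversal. The GATA-type strings AGATAA or TGATAA were in 0 of 9 centres, against 2.18% of all and 1.56% for their reversals. These strings are a description of letters in a window and not of binding.

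The same look-up was made for 4 other NK-class genes of the mouse. Nkx1-1 had 2 peaks and Nkx6-2 had 1, while Nkx1-2 and Nkx6-3 had none. The Nkx1-1 peaks lay at chr5:33775967-33777387, 62 bp downstream of the TSS, and at chr5:33773100-33774441, 2969 bp downstream, and like the pair at Nkx2-5 they contained all coding bases, here 1206. The Nkx6-2 peak at chr7:146766866-146768918 lay 804 bp downstream, was 2052 bp wide and contained all 831. The 3 peaks were single-copy, and 0 of their centres held TAAT.

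Genes that work with Nkx factors in each organ were counted from lists written from general knowledge. Of 11 cardiac partners, 7 had a peak (63.6%), namely Gata4, Gata5, Hand2, Isl1, Mef2c, Srf and Tbx2, and Gata6, Hand1, Tbx5 and Tbx20 had none. The paper places Tbx5 and Tbx20 among primary Isl1 targets, drawing on Isl1 binding in embryos as well as in CPCs. Their absence from this list therefore does not show absence of Isl1. Of 10 ventral neural tube genes, 8 had a peak (80%). These were Dbx2, Foxa2, Irx3, Mnx1, Neurog2, Olig2, Pax6 and Shh, without Dbx1 and Lhx3. Of 7 thyroid and lung genes, 3 did (42.9%), namely Foxa1, Foxe1 and Hhex, and Gata6, Pax8, Sox2 and Sox9 did not. In the pancreas list the count was 2 of 7 (28.6%), with Mafa and Pax6, while Neurod1, Neurog3, Pax4, Pdx1 and Ptf1a had none. In the axial skeleton and spleen list it was 4 of 7 (57.1%), with Meox2, Pax1, Pax9 and Tcf21, and without Meox1, Sox9 and Tlx1. The share was above the 39.1% of protein-coding genes in 4 of the 5 lists, and the cardiac share was not the highest. For the 7 thyroid and lung genes, at 42.9%, it was close to that background. Single-copy peaks were assigned to 6 of the 11 cardiac partners, 6 of the 10 neural tube genes, 3 of 7, 2 of 7 and 2 of 7 in the remaining lists, in the order given, against 28.7% of protein-coding genes, and the last pair of shares is close to that. Gata6, Pax6 and Sox9 each stand in 2 lists.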

How the data were processed

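ChIP-Seq was performed on 2 Isl1 ChIP replicates and 1 input, grouped by their titles. The authors aligned reads with bowtie2 (mm9) and removed duplicates using Picard (1.136 in the submitters' processing notes). Peaks were called with MACS14 (p 1e-08, no model, shift size 80), blacklisted regions were removed, the overlap of the replicates was taken by bedtools (2.15) and HOMER assigned the closest TSS. The deposited list gives start, end, and distance in bp, with no count, score or signal. Lines repeated exactly were dropped (14165 lines, 14082 peaks); starts are uncertain by 1 bp.

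Midpoints were placed on the NCBI m37 assembly, which is mm9, and on GENCODE vM1 exons using Python 3.11.15, numpy 2.4.6, pandas 2.3.3 and numba 0.67.0. Protein-coding genes were the 21031 with a curated transcript in a GRCm38 RefSeq table, used for names only, which left 8 of 9313 names unmatched. Steps were tested on simulated data. All 9 members, other NK-class genes and neighbours are named, and some items are not reported here. Members and lists were chosen with earlier results of these data known. Alternatives changed 1 setting at a time, except that those using GENCODE starts changed the annotation and left out noncoding transcripts together, and the 10 kb one also changed the distance limit and let a peak count for several genes.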

Additional observations from a re-analysis of the deposited data

How the results depend on the processing

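Values without 1 of the replicates could not be had from a combined list. No paired analysis was possible because no test compares the ChIP and input samples. Of 42 alternative values of 7 results, 35 stayed within a factor of 1.5. Some of these could not change. Member peaks with repeated lines numbered 0, so keeping repeats altered nothing. The narrowest member peak was 862 bp wide, so requiring at least 500 bp altered nothing either. Members with a peak numbered 2 when at least 2 peaks were required, and members with a peak near the TSS numbered 2 within 500 bp, both by construction. With the closest protein-coding GENCODE TSS, members with a peak within 1 kb still numbered 4, but the genes differed. Nkx6-1, at 1026 bp from its GENCODE start, dropped out and Nkx2-2, at 349 bp, came in. The cardiac minus other difference in peaks per gene was 0.143 after merging, 0.286 when a peak counted for every protein-coding GENCODE TSS within 10 kb and reversed to -0.143 with the closest protein-coding GENCODE TSS. Both changed the annotation and left out noncoding genes together, and these choices were not separated. TAAT was found in 6 of 9 whole peaks and 1 of 9 central 500 bp windows (39.7% of all such windows), which hold more bases. Since depth is unknown, the absence of a peak at Nkx2-2, Nkx2-3 or Nkx2-9 does not show absence of Isl1.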

Other observations

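Coverage of much of the coding sequence was also seen in other families of developmental regulators, chosen after the Nkx values had been seen and picked by symbol. A gene counted as touched when any of its coding bases lay under a peak. Over 40% of coding bases lay under peaks at 17 of the 17 touched Hox genes (of 39), with a median of 66.3%. The same held at 4 of 4 touched Gata genes (of 6), 6 of 8 touched Sox genes (of 18) and 13 of 20 touched Fox genes (of 42). It was so at 4 of the 4 touched Neurog, Neurod and Olig genes (of 10), of which 3 were covered in full. Tbx genes reached it in 2 of 5 touched cases (of 13), Lhx and Isl genes in 1 of 3 (of 10) and Pax genes in 0 of 2 (of 9). Among all 4354 annotated coding genes touched in this sense, 20.4% exceeded 40%. Coding length, exon number and base composition differ between these families, and their part in the shares was not tested.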
